A study of Mus musculus with 2 samples.

Results

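Integrins are adhesion receptors made of 1 alpha and 1 beta chain, and leukocytes use a small set of them to stick to vessel walls, to antigen-presenting cells and to extracellular matrix. The leukocyte integrin subunits described here are 10 genes chosen by symbol out of the 20938 genes in the tables: Itgal, Itgam, Itgax, Itgad, Itgae, Itga4, Itgb1, Itgb2, Itgb7 and Itgb8. All 10 were above 0 in both libraries and all passed the filter on low values. The beta2 chain (Itgb2) pairs with alphaL to form LFA-1, with alphaM to form Mac-1, with alphaX to form CD11c/CD18 and with alphaD. The alpha4 chain pairs with beta1 to form VLA-4 or with beta7 for homing to the gut, alphaE (CD103) pairs with beta7 and binds E-cadherin, and beta8 pairs with alphaV to release active TGF-beta. In Treg cells LFA-1 supports contact with dendritic cells, and alphaV-beta8 is known for activating latent TGF-beta.

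Treg cells were isolated from the spleens of mice with streptozotocin-induced diabetes on day 7 after transplantation of BALB/c islets under the kidney capsule, in both groups without the tolerance-inducing antibodies. The cKO library came from Foxp3-Mettl14f/+ cKO mice, which carry 1 floxed Mettl14 allele and Cre driven by the Foxp3 promoter, on a C57BL/6J background. The control library came from littermate controls, labelled wild type and given as Mettl14f/f in the methods. Cells were taken by depletion of cells other than CD4+ T cells followed by positive selection. Age, sex and the number of animals behind each library are not given in the sources used here. The genotype label of the cKO library reads as a knockdown of Foxp3, whereas the methods give the Mettl14 deletion, and the genotype in the methods is used here.

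There was 1 library per genotype, with 20239325 reads in the control and 18327535 in the cKO library, so no difference has a replicate check. The deposited values are read counts scaled by 1 factor per library, and levels are given on that scale. Changes are log2 of the cKO over the control level, each with 1 added, with 95% intervals that cover counting error only. Mettl14 had 948 and 652 reads, a change of -0.31, and Foxp3 had 1547 and 1361 reads, a change of 0.05. Transcripts of other cells were plentiful in both libraries: 15 granulocyte markers summed to 274342 and 317163 reads, against 75110 and 51641 for 16 T cell core genes such as Cd3e and Cd4. Of 12 B cell markers 12 were higher in the cKO library by 1.5-fold or more, and of 10 erythroid markers 9 were lower by as much. In such a mixture fewer cells of a type and less RNA per cell cannot be told apart.

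Of the 10 leukocyte integrin subunits, 3 (Itgad, Itgam and Itgax) were higher in the cKO library by 1.5-fold or more, and 0 were lower by as much. Of the 16659 genes compared, 17.2% passed that limit upward and 24.2% downward. Among genes whose mean level was 50 or more, as it was for all the members, the shares were 13.0% and 9.83%. The median change of the members was 0.30, against -0.04 over all genes compared and 0.02 over those at 50 or more. These 3 genes are the alpha chains of myeloid cells that pair with beta2. When 16 T cell core genes were set equal between the libraries, 5 members passed 1.5-fold upward and 0 downward, since Itgae and Itgb2 joined the 3. Under that scaling 27.3% of all genes passed upward and 19.5% downward, and their median was 0.24 in place of -0.04. With library totals, 1 member (Itgad) was higher and 1 (Itgb8) lower, against 15.1% and 26.6% of all genes. At a 2-fold threshold Itgad alone remained, against 10.3% of all genes higher and 18.1% lower.

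**Figure D1:**
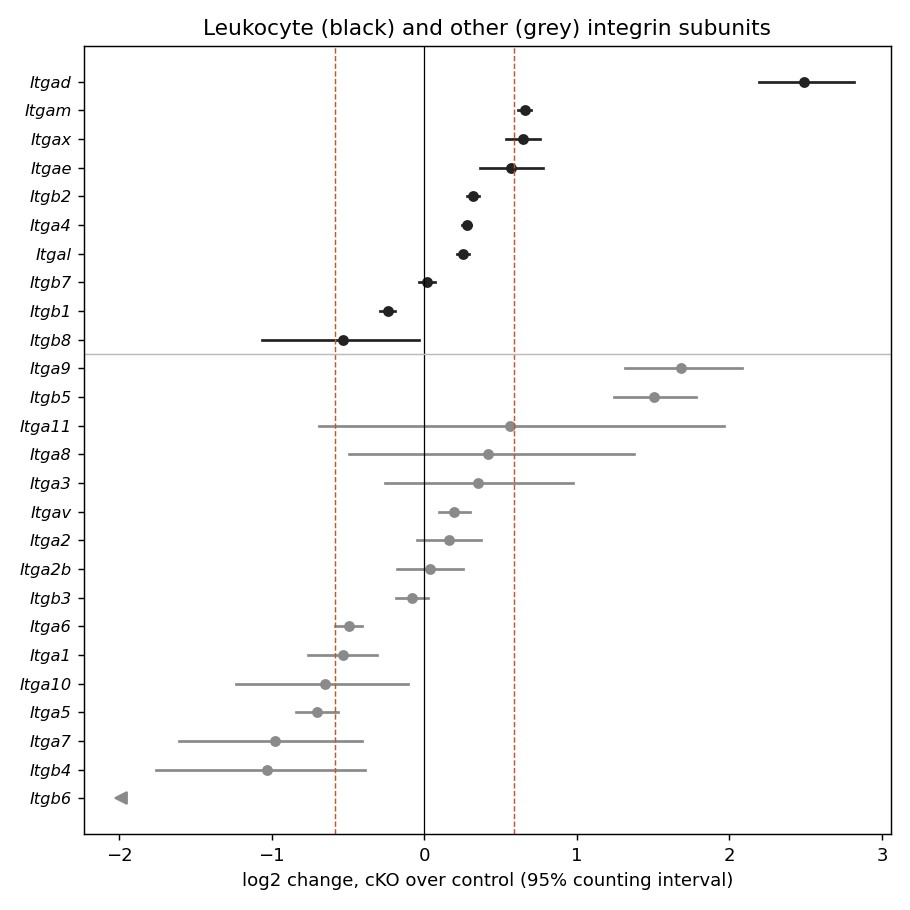
Log2 change of the cKO over the control library for the 10 leukocyte integrin subunits (black) and 16 other integrin subunits (grey), with 95% counting intervals as lines, the 1.5-fold limits dashed, and an arrowhead at the upper end of the interval for Itgb6, listed at 0 in the cKO library. Itgad stands at 2.49, Itgam and Itgax lie just past the upper limit, and Itgb8 at -0.53 has the widest interval of the black points.

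Itgb2, the common beta chain, is on the plus strand of chromosome 10 (GRCm38), from 77530252 to 77565708. It had 11662 reads in the control and 12372 in the cKO library, levels of 11282 and 14069. Its change was 0.32 (95% interval 0.28 to 0.36), below 1.5-fold. Itgal, which encodes the alpha chain of LFA-1 on nearly all leukocytes, had 9945 and 10086 reads, and its change was 0.25 (0.21 to 0.29). Both subunits of LFA-1 therefore had somewhat higher levels in the cKO library on the deposited scale. Itgal gained reads relative to the T cell core genes. For every 100 reads on T cell core genes there were 13.2 Itgal reads in the control and 19.5 in the cKO library, a ratio of 1.48 (1.43 to 1.52).

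Itgam encodes alphaM, the CD11b chain of neutrophils, monocytes and macrophages. It had 7733 reads in the control and 10372 in the cKO library, levels of 7481 and 11795. The change was 0.66 (0.61 to 0.70), a 1.58-fold rise. Itgax encodes alphaX, the CD11c chain of dendritic cells and some macrophages. It had 1145 and 1524 reads, levels of 1108 and 1733, and rose by 0.65 (0.53 to 0.76), an interval whose lower end is under the 1.5-fold limit of 0.58. The ratio of Itgax to Itgam reads was 14.8 per 100 in the control and 14.7 per 100 in the cKO library, and its change of 0.992 had an interval of 0.913 to 1.08. The changes of these neighbouring genes were not told apart by counting error.

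Itgad encodes alphaD, the beta2 partner known from macrophages of the splenic red pulp. It had 106 reads in the control and 510 in the cKO library, levels of 102.5 and 580. The change was 2.49 (2.20 to 2.82), or 5.61-fold, and 562 of the 16659 genes compared had a larger one. Itgad moved apart from its family: its reads per 100 Itgam reads went from 1.37 to 4.92, a ratio of 3.59 (2.90 to 4.47). Against Itgax the ratio was 3.61 (2.88 to 4.56) and against Itgal 4.74 (3.83 to 5.92). These ratios within a library need no scaling between libraries, and none of their intervals reaches 1.

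Itgam, Itgax and Itgad follow each other on the plus strand of chromosome 7, from 128062640 to 128118491, from 128129547 to 128150657 and from 128154376 to 128223816. The 3 genes span 161 kb, and Itgal lies 728 kb away on the same chromosome, from 127296260 to 127335138. Of the 5 coding genes with a row on each side of the cluster, 10 in all, 3 passed 1.5-fold upward and 1 downward, and their median change was -0.03. The upward ones were Prss8 with 9 and 13 reads, Trim72 with 18 and 38 and 9130023H24Rik with 136 and 202. The interval of Prss8, from -0.57 to 2.17, includes 0. The downward one, Prss36, had 11 and 0 reads, and of 1224 genes with 10 to 19 control reads 610 were at 0 in the cKO library. Transcripts of Itgax and Itgad share 384 stretches of 50 bases, 8.02% of those of Itgax and 8.43% of those of Itgad, whereas the other 44 pairs of members share 0. How reads on shared stretches were counted is not given in the sources used here, so the split between Itgax and Itgad is less certain than the other values.

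The upstream sequences of Itgam and Itgax are shown because these genes are neighbours with like changes, and that of Itgb7 because its level hardly differed. Each is the 250 bases before the RefSeq start on GRCm38.p6, read 5′ to 3′ on the gene's strand, chr7:128062390-128062639 and chr7:128129300-128129549 on the plus strand and chr15:102231936-102232185 on the minus strand. Capitals mark GAGGAA or its complement TTCCTC, a purine-rich motif bound by PU.1, searched on both strands. The shorter core GGAA that ETS factors share was not searched or marked, and it also occurs in the Itgax sequence.
Itgam: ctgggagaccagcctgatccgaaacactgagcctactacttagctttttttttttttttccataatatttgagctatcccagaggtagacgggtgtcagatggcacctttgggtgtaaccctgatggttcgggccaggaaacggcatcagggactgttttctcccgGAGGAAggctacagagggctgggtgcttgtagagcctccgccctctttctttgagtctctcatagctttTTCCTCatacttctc
Itgax: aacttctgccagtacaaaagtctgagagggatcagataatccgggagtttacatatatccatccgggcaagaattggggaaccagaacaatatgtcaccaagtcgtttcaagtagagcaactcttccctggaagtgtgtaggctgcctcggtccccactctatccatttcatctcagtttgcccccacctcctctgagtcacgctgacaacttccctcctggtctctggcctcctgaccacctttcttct
Itgb7: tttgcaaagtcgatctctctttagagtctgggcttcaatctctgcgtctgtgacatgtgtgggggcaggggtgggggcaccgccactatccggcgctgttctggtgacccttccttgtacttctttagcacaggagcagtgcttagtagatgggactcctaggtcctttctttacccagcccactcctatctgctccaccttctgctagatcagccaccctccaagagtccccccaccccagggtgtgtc

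The Itgam sequence holds 2 GAGGAA matches, with first bases 84 and 15 bases before the start, and the Itgax and Itgb7 sequences hold 0. Of the 6 members with a RefSeq promoter, 2 hold a match (Itgam and Itgb1), and 23.3% of the 32851 promoters in the table do in the same window. The letters TATAAA, the core of a TATA box, occur on either strand in 0 of these 6 and in 12.4% of all promoters. These are matches of letters and not measured binding sites. Itgam and Itgax, with like changes, did not share the GAGGAA letters in this window.

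Per kilobase of exon, Itgb2 was the highest of the 10 members in both libraries, at 3696 in the control and 4610 in the cKO library. Itgb1, Itgb7, Itgam, Itgal and Itga4 followed between 1340 and 2051 in the control library, where Itgb1 and Itgb7, and likewise Itgam and Itgal, were not separated by their counting intervals. In the cKO library Itgam was second at 2348, and Itgal and Itgb1 were not separated. Itgax, Itgae, Itgad and Itgb8 came after a wide gap, at 231, 75.4, 22.7 and 7.78 in the control library. Itgad was below Itgae in the control library, while their values of 129 and 112 in the cKO library had overlapping intervals. With the coding length in place of all exons Itga4, whose annotated exons span 13978 bases, was first in both libraries, so the order of the abundant members depends on the length used.

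**Figure D2:**
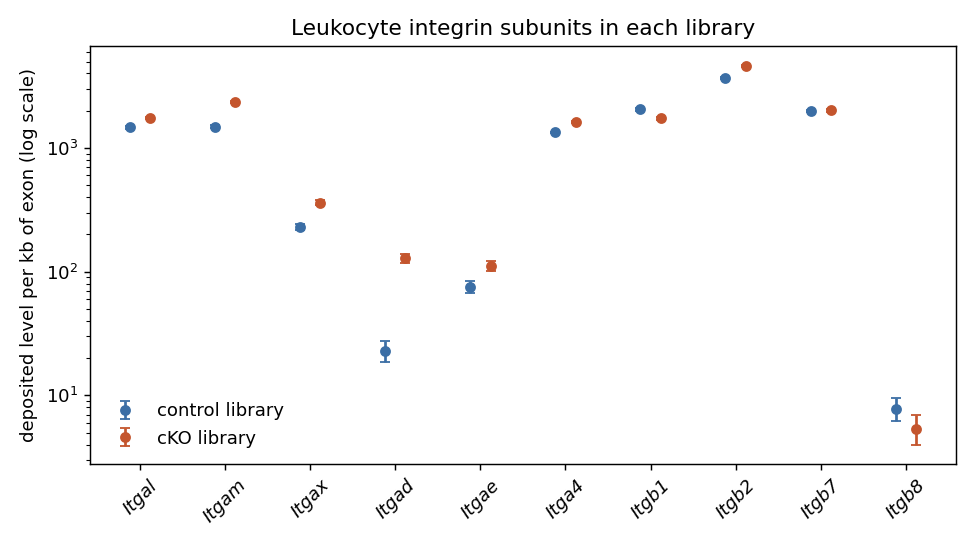
Deposited level per kilobase of exon on a log axis for each leukocyte integrin subunit in the control (blue) and cKO (orange) library, with 95% Poisson intervals from the reads. Itgad moves from 22.7 to 129 per kilobase, while the abundant members from Itgb2 to Itga4 stay within the range of 1340 to 4610.

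The make-up of the beta2 partners was compared as shares of the reads per kilobase over the 4 alpha chains. In the control library Itgal held 45.7%, Itgam 46.4%, Itgax 7.19% and Itgad 0.709%. In the cKO library Itgal held 38.1%, Itgam 51.2%, Itgax 7.87% and Itgad 2.81%. As plain shares of the 18929 and 22492 reads, Itgal went from 52.5% (95% Clopper-Pearson interval 51.8 to 53.3) to 44.8% (44.2 to 45.5), and Itgam from 40.9% (40.2 to 41.6) to 46.1% (45.5 to 46.8). The share of Itgal was thus lower and that of each of the other chains higher in the cKO library, beyond counting error and with either length. All alpha chains together had 162 reads per 100 Itgb2 reads in the control and 182 in the cKO library, a ratio of 1.12 (1.08 to 1.16).

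**Figure D3:**
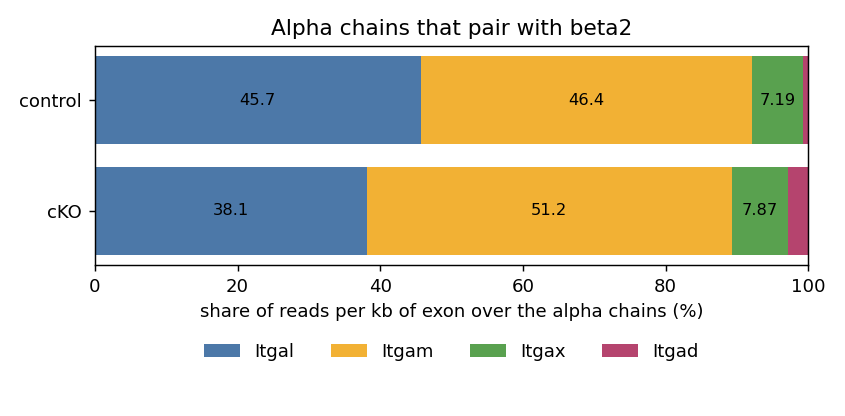
Share of each alpha chain in the summed reads per kilobase of exon of Itgal, Itgam, Itgax and Itgad, in percent, for the control and cKO library. Itgal takes 45.7% of the control bar and 38.1% of the cKO bar, and Itgad widens from 0.709% to 2.81%.

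Markers of the cells that carry these chains were set beside them. Of 18 macrophage markers 17 were higher in the cKO library by 1.5-fold or more and 0 were lower, and their summed level went from 6791 to 21199, or 3.12-fold, with Timd4 and Marco at 0 reads in the control library. Itgad had 15.1 reads per 1000 macrophage marker reads in the control and 27.4 in the cKO library, a ratio of 1.81 (1.46 to 2.26), so its level differed by more than the summed markers. The median change of the markers was 2.28, and 8 of the 18 had a larger change than Itgad, among them 2 at 0 in the control library. Itgax moved less than the sum, from 163 to 81.8 per 1000, a ratio of 0.501 (0.462 to 0.544). Of 8 dendritic cell markers, 1 was at least 1.5-fold higher and 0 lower, and their summed level was 1729 and 1987, or 1.15-fold. Itgax per 1000 dendritic cell marker reads went from 641 to 872, a ratio of 1.36 (1.23 to 1.51). Of 15 granulocyte markers 3 were higher and 3 lower, with a summed level of 265395 and 360665, or 1.36-fold, and Itgam per 1000 of their reads went from 28.2 to 32.7, a ratio of 1.16 (1.13 to 1.20). Itgam, which macrophages also carry, rose 1.58-fold, less than the 3.12-fold of the summed macrophage markers. No dendritic cell or granulocyte marker was at 0. The part of these other cells in the levels of Itgad, Itgax and Itgam was not tested.

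Itga4, the alpha chain shared by VLA-4 and alpha4-beta7, lies on chromosome 2 from 79255426 to 79333123 and was the member with the most reads, 19362 in the control and 19975 in the cKO library. Its change was 0.28 (0.25 to 0.31). Its partners had smaller or negative changes. Itgb1, on chromosome 8 from 128685654 to 128733200, encodes the beta chain of many matrix receptors and had 8651 and 6226 reads, with a change of -0.24 (-0.29 to -0.19), which became 0.04 when the T cell core genes were set equal. Itgb7, on the minus strand of chromosome 15 (102215995 to 102231944), had 5707 and 4912 reads and a change of 0.02 (-0.04 to 0.07), which was -0.07 with library totals. None of the 3 passed 1.5-fold on the deposited scale.

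The balance between these chains differed between the libraries by more than counting error. Itga4 reads per 100 Itgb1 reads went from 224 to 321, a ratio of 1.43 (1.38 to 1.49), and per 100 Itgb7 reads from 339 to 407, a ratio of 1.20 (1.15 to 1.25). Itgb7 per 100 Itgb1 reads went from 66.0 to 78.9, a ratio of 1.20 (1.14 to 1.26). The beta chain of the leukocyte-specific integrins also gained against beta1, with Itgb2 per 100 Itgb1 reads at 135 and 199, a ratio of 1.47 (1.41 to 1.54). Against the T cell core genes Itga4 went from 25.8 to 38.7 reads per 100, a ratio of 1.50 (1.47 to 1.54), close to that of Itgal.

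Itgae encodes alphaE (CD103), found on a subset of Treg cells, on CD8 T cells of epithelia and on some dendritic cells, and lies on chromosome 11 from 73090583 to 73147446. It had 357 and 451 reads, levels of 345 and 513, and its change of 0.57 (0.37 to 0.78) was just under the limit of 0.58. It had 23.1 reads per 100 Foxp3 reads in the control and 33.1 in the cKO library, a ratio of 1.44 (1.22 to 1.69). Its partner chain Itgb7 had a change of 0.02, and the ratio of Itgae to Itgb7 reads differed 1.47-fold (1.27 to 1.70). Of 11 CD8 T and NK cell markers 7 were at least 1.5-fold higher and 0 lower, with a summed level of 6560 and 12650 and no marker at 0. Itgae against them went from 5.26 to 4.05 reads per 100, a ratio of 0.770 (0.667 to 0.890), and against the dendritic cell markers the ratio was 1.29 (1.10 to 1.51). The part of these cells in the level of Itgae was not tested.

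Itgb8, on the minus strand of chromosome 12 (119158022 to 119238802), encodes the beta chain with which Treg cells release active TGF-beta. It had the fewest reads of the members, 89 in the control and 52 in the cKO library, levels of 86.1 and 59.1. Its change was -0.53 (-1.06 to -0.03), the lowest of the members and under 1.5-fold. The gene of its partner, Itgav, had 1575 and 1536 reads and a change of 0.20 (0.10 to 0.30). Itgb8 went from 5.65 to 3.39 reads per 100 Itgav reads, a ratio of 0.599 (0.414 to 0.860), and from 5.75 to 3.82 per 100 Foxp3 reads, a ratio of 0.664 (0.459 to 0.954). Its reads leave a wide interval, and a change between 0.978-fold and 0.478-fold is within counting error. Among the genes that hold its substrate, Tgfb1 had 4152 and 4561 reads and a change of 0.37. Nrros (LRRC33, which presents latent TGF-beta on myeloid cells) had 2804 and 3223 reads and a change of 0.43. Lrrc32 (GARP, a carrier on Treg cells) rose by 1.35 from 187 to 406 reads, while Foxp3 changed by 0.05. The part of cell composition in the change of Lrrc32 was not tested.

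**Figure D4:**
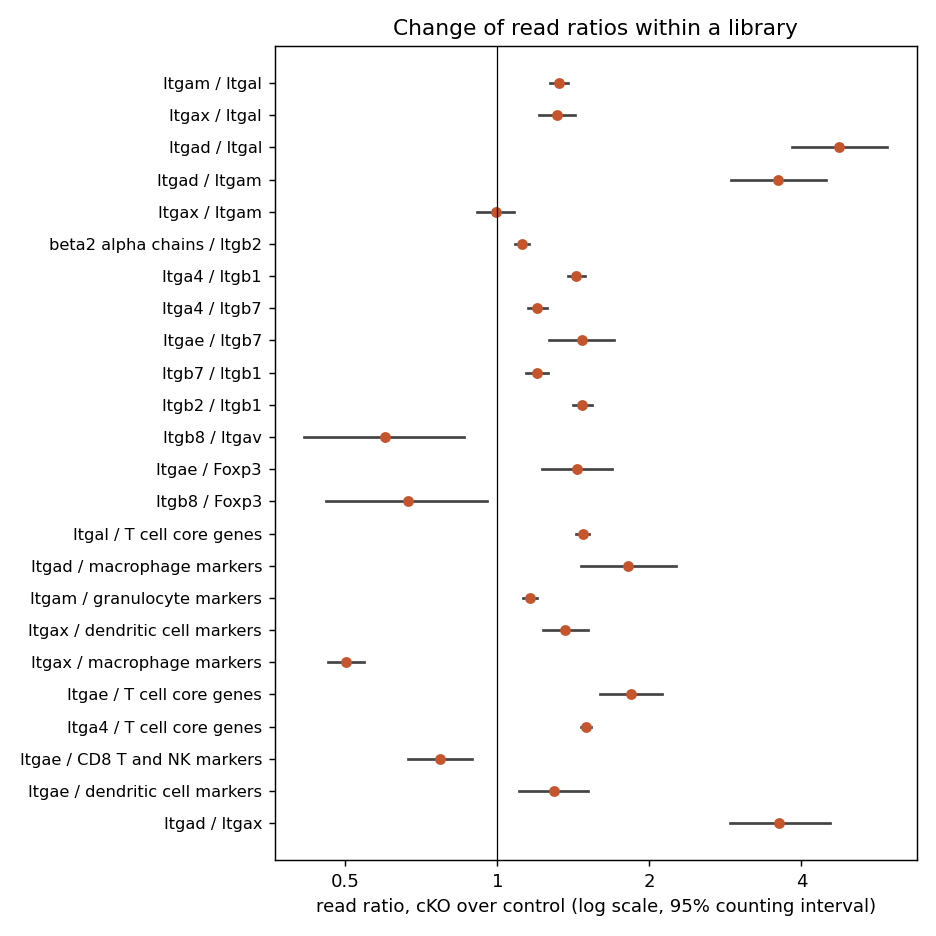
Read ratio of the first to the second gene or marker list in the cKO library over the same ratio in the control library, on a log axis with 95% exact conditional intervals. Itgad gains against Itgal (4.74), Itgam (3.59) and Itgax (3.61), Itgax keeps its ratio to Itgam (0.992), and Itgb8 lies below 1 against Itgav (0.599) and Foxp3 (0.664).

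Two-sided exact binomial tests on the recovered reads, which compare these libraries and not the genotypes, were run over 14863 genes with Benjamini-Hochberg adjustment. With the 1.5-fold threshold they called 14.8% of genes higher and 17.6% lower, and they called Itgad, Itgam and Itgax higher and 0 lower. Of the members below 1.5-fold, only Itgb7 had a counting interval of its change that includes 0, from -0.04 to 0.07. The interval of Itgb8 ended close by, at -0.03. In edgeR's exact test, where the biological coefficient of variation was set to 0.4, 1.54% of genes were called higher and 3.83% lower, and 0 of the 10 members were called. Itgad had an adjusted p of 0.101 there, and 1 member had an unadjusted p under 0.05.

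Of 16 other integrin subunits 2 passed 1.5-fold upward and 5 downward, against 17.2% and 24.2% of all genes compared. Their median change was -0.02. Itgb5, a partner of alphaV, rose by 1.50 (1.24 to 1.78) from 164 to 397 reads, and Itga9, a partner of beta1, rose by 1.68 (1.32 to 2.08) from 80 to 220 reads. Itga5, the fibronectin receptor chain that pairs with beta1, fell by 0.70 from 1254 to 655 reads, Itga7 by 0.98 from 82 to 35 reads and Itga10 by 0.65 from 80 to 43 reads. The laminin receptor chain Itga6 had 2824 and 1703 reads and a change of -0.50, Itgb3 of platelets and other cells 1587 and 1277 reads and a change of -0.08, and Itga2 389 and 370 reads and a change of 0.16. The other two genes at least 1.5-fold lower, named after their values were seen, were Itgb4 with 66 and 27 reads and Itgb6 with 19 and 0. Itgb6 is in the same low read class as Prss36, so no size is given for it.

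Of 17 integrin ligand genes, counting E-cadherin, matrix proteins and carriers of latent TGF-beta, 15 passed the filter. Of these, 5 were past 1.5-fold upward and 5 downward, against 17.2% and 24.2% of all genes compared. Their median change was 0.21. Madcam1, the vascular ligand of alpha4-beta7, and Vtn were at 0 in both libraries. Vcam1, the ligand of VLA-4, which red pulp macrophages also carry, rose by 3.31 (3.14 to 3.49) from 314 to 2655 reads. Icam1, a ligand of LFA-1 and Mac-1, rose by 0.63 (0.50 to 0.77) from 799 to 1053 reads, while Icam2, a ligand of LFA-1 on endothelium, had 671 and 662 reads and a change of 0.21 and was named outside the rule. Fn1 (fibronectin) rose by 1.34 from 6629 to 14274 reads and F11r (JAM-A, a ligand of LFA-1) by 1.59 from 73 to 189 reads. Cdh1 (E-cadherin), the ligand of alphaE-beta7, fell by 0.91 from 173 to 78 reads, Spp1 (osteopontin) by 0.61 from 531 to 295 reads and Icam4, an erythroid ligand, by 0.63 from 104 to 57 reads. The rest of the 5 lower genes, named after their values were seen, were Jam3 with 60 and 30 reads and Icam5 with 46 and 0. Thy1 had 4990 and 3240 reads and a change of -0.39. The fifth higher gene is Lrrc32, given above. With macrophage markers summing 3.12-fold higher and 9 of 10 erythroid markers lower, the part of those cells in the changes of Vcam1, Fn1 and Icam4 was not tested.

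Of 30 genes that switch integrins on or off or carry their signals, called activation genes here, 28 passed the filter. Of these, 3 were past 1.5-fold upward and 4 downward, against 17.2% and 24.2% of all genes compared. Their median change was 0.18. Fermt1 and Parva were at 0 in both libraries. Of the genes whose products bind integrin tails, Flna had 37288 and 36453 reads and a change of 0.20, and Tln1 (talin) 27777 and 28519 reads and a change of 0.27. The adaptor Fyb had a change of 0.24, the kinase Stk4 0.13 and the GTPase Rap1b 0.35. Ptk2b, which encodes the kinase PYK2, rose by 0.63 from 4975 to 6560 reads, the adaptor Skap2 by 0.62 from 1654 to 2160 reads and Rap1gap2, which turns Rap1 off, by 0.75 from 1049 to 1500 reads. Rassf5, whose product RAPL links Rap1 to alphaL in lymphocytes, fell by 0.70 from 4435 to 2323 reads, and Parvb by 0.67 from 678 to 361 reads. The other two lower genes, named after their values were seen, were Tln2 with 54 and 18 reads and Fermt2 with 5 and 0. The interval of Fermt2, whose upper end is 0.36, includes 0, so no size is given for it. The RAPL gene thus fell while its integrin partner Itgal had a change of 0.25 and the T cell core genes had a median of -0.28. The part of cell composition in the changes of Rassf5 and Itgal was not tested.

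**Figure D5:**
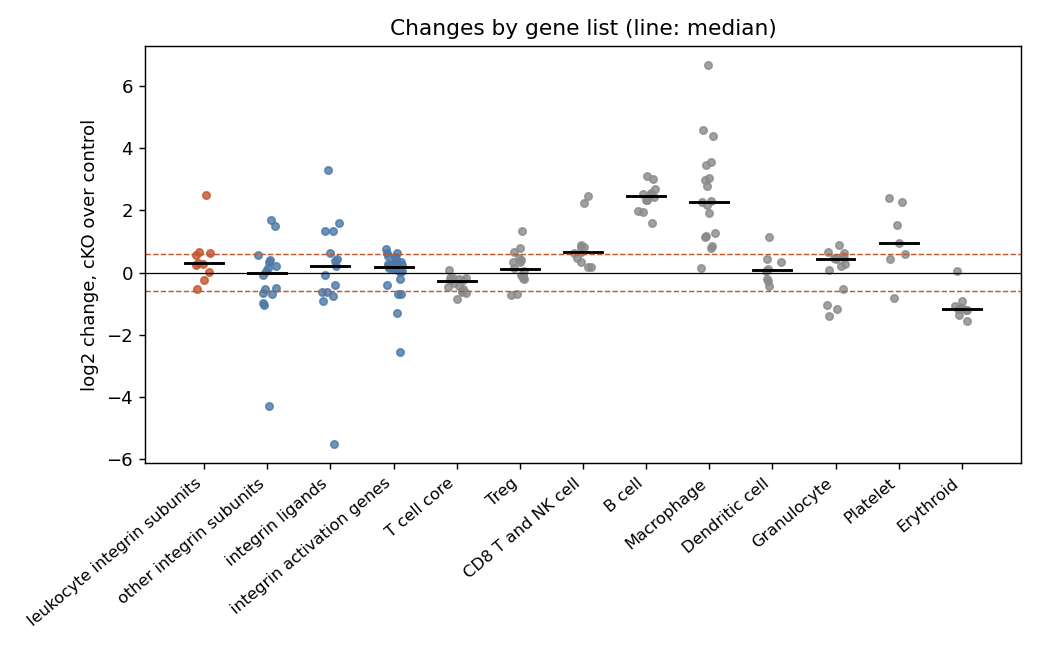
Log2 change of each gene past the filter in the leukocyte integrin subunits (orange), the other integrin lists (blue) and the cell type markers (grey), with a line at the median and the 1.5-fold limits dashed; genes at 0 in 1 library are placed by the pseudocount. The members have a median of 0.30, the T cell core genes -0.28, the B cell markers 2.47, the macrophage markers 2.28 and the erythroid markers -1.16.

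The T cell core genes had a median change of -0.28, with 0 genes past 1.5-fold upward and 3 downward, and a summed level of 72661 and 58724. The 16 Treg markers had a median of 0.10 and a summed level of 13513 and 15459, with 3 higher, 2 lower and no marker at 0. The part of cell composition in the levels of the members was not tested.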

How the data were processed

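RNA-seq values of 1 control and 1 cKO library were analysed, both from splenic Treg cells. The labels and methods name TopHat and mm10, while the submitters' processing notes list bcl2fastq 2.0, STAR, StringTie and DESeq2; the annotation and the counting tool are not given in the sources used here. The authors deposited 1 signal value per gene and library. All values (100%, within 0.001 of a whole number) were whole multiples of the smallest value above 0 in their library, 0.967 in the control and 1.14 in the cKO library, which gave back 20239325 and 18327535 reads.

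Changes are log2 of the cKO over the control value, each with a pseudocount of 1, and genes with a mean of at least 1 over both libraries were compared at a 1.5-fold threshold. Intervals at 95% are exact Clopper-Pearson intervals for shares and for changes, conditional exact intervals for read ratios, and exact Poisson intervals for levels. They cover counting error only, not the spread between libraries, and treat every read as independent. With 1 library per genotype no test of the genotype was possible. An exact binomial test on the recovered reads against TMM-scaled totals (at least 10 reads in both libraries together, Benjamini-Hochberg adjusted p under 0.1) and the exact test of edgeR, run with the biological coefficient of variation set to 0.4, compare these libraries only. For both, the 1.5-fold threshold used the deposited scale.

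The members and gene lists were chosen with earlier results of these data known. The genes named are the members, the 5 most abundant genes of each integrin list, and those past 1.5-fold with a mean of at least 50; a gene named outside this rule is said to be so. Lrrc33 was matched as Nrros through RefSeq synonyms. Gene positions and lengths are from GENCODE vM21 on GRCm38, the assembly of mm10, and promoters are from RefSeq on GRCm38.p6, with 6 of 10 members matched. The binomial calls and the intervals of changes and read ratios were tested on simulated Poisson counts. Those counts had fewer changed genes than these libraries and no spread between replicates. The edgeR test and the recovery of reads were not simulated. Python 3.11.15, scipy 1.17.1, pandas 2.3.3, edgeR 4.0.16 and DESeq2 1.42.0 (median-of-ratios scaling only) were used.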

Additional observations from a re-analysis of the deposited data

How the results depend on the processing

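No paired analysis was possible because there is 1 library for each genotype, so no library could be left out either. With a pseudocount of 0.1 or 5 and with TMM or median-of-ratios scaling, the changes of all 10 members stayed within their counting intervals. With library totals 4 of 10 did, and with equal T cell core genes 2 of 10 did, and none of the 3 members past 1.5-fold changed sign. With library totals 1 member was at least 1.5-fold higher and 1 lower, and 1 activation gene was higher. With equal T cell core genes 5 members, 5 other subunits and 7 activation genes were higher, against 27.3% of all genes. Under that scaling 3 other subunits, 2 ligands and 2 activation genes were lower, against 19.5% of all genes. The shares of all genes under the other thresholds and tests are those given beside the members above. At a 2-fold threshold 1 member and 0 activation genes were higher, and 2 other subunits, 1 ligand and 2 activation genes were lower. With edgeR's exact test at the assumed coefficient of variation 0 members, 0 other subunits, 1 ligand and 0 activation genes were higher, and 1 other subunit, 1 ligand and 0 activation genes were lower. The lower ones were Itgb6 with 19 and 0 reads and Icam5 with 46 and 0, so both calls rest on a 0 in the cKO library. A minimum mean of 50, chosen after seeing the data, left 3 other subunits, 3 ligands and 2 activation genes lower. No filter, a minimum mean of 10 and the exact binomial test kept every count within 1.5 times its value on the deposited scale. With the coding length or no length correction the shares of the alpha chains that pair with beta2 moved beyond their counting intervals, while Itgal stayed lower and the other chains higher in the cKO library. Counting error limits Itgb8 and Itgad most, with 52 reads in the cKO and 106 in the control library.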

Other observations

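Itgb2l, a beta2-like subunit of maturing neutrophils that is in none of the lists and was singled out after its values were seen, had 1705 reads in the control and 2444 in the cKO library. Its change was 0.75 (95% interval 0.66 to 0.84), and its reads per 100 Itgb2 reads went from 14.6 to 19.8, a ratio of 1.35 (1.26 to 1.45). The 15 granulocyte markers had a summed level 1.36-fold higher in the cKO library, with Camp and Ngp, named like the next genes after their values were seen, at 0.88 and 0.66, while Mpo, Prtn3 and Ctsg, genes of granulocyte precursors, fell by 1.03, 1.17 and 1.38 on the log2 scale. The part of granulocytes in the level of Itgb2l was not tested.

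The 10 leukocyte integrin subunits together took 0.320% of the reads in the control and 0.363% in the cKO library. Of 8 platelet markers 5 were at least 1.5-fold higher and 1 lower, against 17.2% and 24.2% of all genes compared. Itga2b, the platelet alpha chain and likewise picked afterwards, had 377 and 329 reads and a change of 0.04 (-0.18 to 0.25).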
